A study of Mus musculus with 15 samples.

Results

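The 9 genes described here encode the surface molecules with which macrophages and dendritic cells stimulate or restrain T cells. They are the B7 ligands *Cd80* and *Cd86*, the ICOS ligand *Icosl*, the PD-1 ligands *Cd274* (PD-L1) and *Pdcd1lg2* (PD-L2), the receptor *Cd40*, the TNF family ligands *Tnfsf4* (OX40 ligand) and *Tnfsf9* (4-1BB ligand), and *Cd83*. They were taken by name from the 51763 genes of the count table, by a rule that uses no measured value but was set with earlier results of these data known, and all 9 passed the filter on low counts that 16919 genes passed. RNA was sequenced from bone-marrow-derived macrophages (BMDMs), which are grown from marrow cells with macrophage colony-stimulating factor. The cells came from wild-type (WT) female C57BL/6NTac mice, aged 8 to 10 weeks, and the cells of 5 mice were pooled before seeding. Every condition had 3 samples drawn from that pool, after 24 h of stimulation. They are technical replicates, so each SD, SE and p measures the spread between wells and libraries and not between mice. PBS served as the control. HMGB1, or high-mobility group box 1, is a chromatin protein that acts as a danger signal outside the cell. It was given at 5 µg/mL either fully reduced (frHMGB1, made in-house with a reducing agent in its buffers) or in its disulfide form (dsHMGB1, a gift of another laboratory). LPS-EK was given at 1 µg/mL in the LPS group. In the LPS/IFNγ group, used as the classical M1 condition, 20 ng/mL IFN-gamma was combined with LPS. That LPS was at 1 µg/mL by the treatment field of the labels, and at 100 ng/mL by their protocol text and the study's methods. The redox form and the source of HMGB1 cannot be told apart in this design. By the protocol text and the study's methods, the LPS dose was lower in LPS/IFNγ than in LPS. The effect of IFNγ can then not be told apart from that of the lower LPS dose.

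A T cell needs a second, costimulatory signal besides recognition of its antigen. CD80 and CD86 deliver it through CD28 and withdraw it through CTLA-4, ICOS ligand sustains helper T cells, and OX40 ligand and 4-1BB ligand prolong the response of T cells that are already activated. CD40 works in the opposite sense: T cells engage it through CD40 ligand, and the antigen-presenting cell then matures. PD-L1 and PD-L2 bind PD-1 and restrain T cells. CD83 marks mature dendritic cells and stabilises CD86 and MHC class II at the surface. In macrophages, Toll-like receptor 4, the LPS receptor, and the interferon receptors are known to act on many of these genes through the transcription factors NF-κB, AP-1 and the IRFs.

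Total counts ranged from 40934540 to 80925478 per library. PBS replicate 3 stood apart. Its Pearson's r across genes (log2 CPM) was 0.933 with 1 PBS library and 0.938 with the other, and the remaining replicate pairs had 0.987 to 0.993. For the 9 ligand genes, calls that rest on PBS replicate 3 are given with and without it. Values of other named genes are given with it only. The macrophage markers *Csf1r*, *Adgre1*, *Cd68*, *Lyz2*, *Mertk*, *Fcgr1* and *Itgam* were all counted and summed to 13146 to 27040 CPM. Of the T cell markers, *Cd3d*, *Cd3e*, *Cd3g* and *Cd8a* had 0 counts in all 15 libraries, while *Cd4* had condition means of 1078 to 1435 normalized counts and was called in no comparison. Of the neutrophil genes, *Ly6g* and *Mpo* had 0 counts, and *Camp* was called higher than PBS in dsHMGB1 (mean 1.72 to 30.5 normalized counts; log2 fold change 4.03, adjusted p = 0.00508) and in LPS (3.07, adjusted p = 0.0244). The 5 neutrophil genes summed to at most 0.683 CPM and the 5 B cell markers to at most 0.861 CPM. *Cd79b*, the B cell marker that passed the filter, was called higher in LPS/IFNγ (1.16, adjusted p = 0.0368). The 5 fibroblast markers summed to 118 to 282 CPM in PBS and to 189 to 247 CPM in the other conditions. Called higher than PBS were 1 of them in dsHMGB1 and 4 each in LPS and LPS/IFNγ, where most ligand genes were higher too. The calls rest on TMM scaling, and the CPM sums of dsHMGB1, LPS and LPS/IFNγ lay within the PBS range. Of all tested genes, 23.3%, 26.7% and 29.0% were higher in these conditions. The 6 dendritic cell markers summed to 3.35 to 5.29 CPM in PBS, frHMGB1 and dsHMGB1, to 7.89 to 8.73 CPM in LPS and to at least 13.9 CPM in LPS/IFNγ, the condition in which 7 of the 9 ligand genes had their highest mean. Of the 3 that passed the filter, *Zbtb46* and *Xcr1* followed that order from dsHMGB1 on, and *Clec9a* was lower than PBS in all 3 stimulations. It fell from 117 normalized counts in PBS to 9.73 with dsHMGB1 (adjusted p = 2.95e-06), 12.0 with LPS and 67.1 with LPS/IFNγ (adjusted p = 0.0341). The part of these other cell types in the results was not tested.

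*Cd274* and *Pdcd1lg2* lie side by side on the plus strand of chromosome 19, with 22823 bp between the end of the former and the start of the latter, and they are shown here because the former was called higher in dsHMGB1 and LPS and the latter was not. The sequences are the 250 bases before each start site (RefSeq, GRCm38.p6), 5′ to 3′. RefSeq windows matched 4 of the 9 genes, *Icosl*, *Cd80*, *Cd274* and *Pdcd1lg2*. Capitals mark a match to the NF-κB consensus.
*Cd274*, chr19:29367188-29367437, plus strand: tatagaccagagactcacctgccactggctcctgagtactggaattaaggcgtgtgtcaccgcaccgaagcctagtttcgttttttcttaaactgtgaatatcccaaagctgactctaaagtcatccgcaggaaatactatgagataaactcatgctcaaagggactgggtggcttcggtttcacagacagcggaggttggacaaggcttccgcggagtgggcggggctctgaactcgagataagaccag
*Pdcd1lg2*, chr19:29410669-29410918, plus strand: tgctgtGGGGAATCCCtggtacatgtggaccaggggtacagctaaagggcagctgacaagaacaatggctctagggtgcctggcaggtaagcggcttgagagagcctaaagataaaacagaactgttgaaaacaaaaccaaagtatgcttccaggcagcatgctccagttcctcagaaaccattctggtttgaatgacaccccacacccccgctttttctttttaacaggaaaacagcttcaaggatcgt
Both strands were searched for the NF-κB consensus, the interferon-gamma-activated site TTCNNNGAA, the interferon-stimulated response element (GAAA repeated after any 2 bases) and the AP-1 site TGANTCA. The *Pdcd1lg2* window held 1 NF-κB match, 244 to 235 bases before the start, and the *Cd80* window held 1 AP-1 match, 42 to 36 bases before it. No other match was found in the 4 windows. Among 32851 windows of the same length, 3.9% held the NF-κB consensus, 7.02% the interferon-gamma-activated site, 2.98% the response element and 6.75% the AP-1 site. The *Icosl* window was 68.8% G and C with 23 CG dinucleotides, against 50.4% with 11 in *Cd274*, 48.4% with 3 in *Pdcd1lg2*, 52.8% with 3 in *Cd80* and a median of 52.4% with 6 over all windows. The start site behind the *Cd80* window lies 3372 bases inside the GENCODE gene, so it is another one than the outermost.

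dsHMGB1, LPS and LPS/IFNγ each raised most of the 9 genes over PBS, and frHMGB1 raised *Icosl* and *Cd83*. A gene was called when its adjusted p over all 16919 genes was under 0.05 in edgeR's quasi-likelihood test. In frHMGB1-stimulated BMDMs 2 of 9 genes were called higher, where 1.31% of all tested genes were, and 0 were called lower, where 5.69% of all tested genes were. *Icosl* and *Cd83* lost the call with only PBS and frHMGB1 fitted. With dsHMGB1, 8 of 9 were higher, against 23.3% of all tested genes. LPS also raised 8 of 9, against 26.7% of all tested genes, and LPS/IFNγ raised 9 of 9, against 29.0%. No ligand gene was called lower than PBS in dsHMGB1, LPS or LPS/IFNγ, where 24.2%, 36.2% and 31.2% of all tested genes were. In the 4 comparisons with PBS, 0 ligand genes were lower at an unadjusted p under 0.05 by edgeR and 0 by DESeq2. The median log2 fold change of the 9 genes was 0.15 in frHMGB1, 4.11 with dsHMGB1, 4.91 with LPS and 5.70 with LPS/IFNγ, and that of all tested genes was -0.01, -0.10, -0.21 and -0.12. These comparisons share the PBS libraries. Without PBS replicate 3 the counts of ligand genes called higher were 3, 9, 8 and 9, where 8.41%, 29.8%, 32.9% and 33.3% of all tested genes were, as *Cd40* was added in frHMGB1 and *Pdcd1lg2* in dsHMGB1.

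Because the replicates were technical, a log2 fold change above 2 was also counted without a test. It was passed by 0 of 9 ligand genes in frHMGB1, by 7 in dsHMGB1 and by 8 each in LPS and LPS/IFNγ. Over all tested genes the shares were 0.609%, 8.43%, 10.9% and 12.1%. *Pdcd1lg2* stayed under the limit in every stimulation and *Cd80* did so in dsHMGB1. Without PBS replicate 3, *Pdcd1lg2* passed it in LPS/IFNγ at 2.01, so that 9 of 9 did, against 11.9% of all tested genes. The nearest values on either side of it were the 2.68 of *Cd86* in dsHMGB1 and the 1.61 of *Pdcd1lg2* in LPS/IFNγ.

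**Figure D1:**
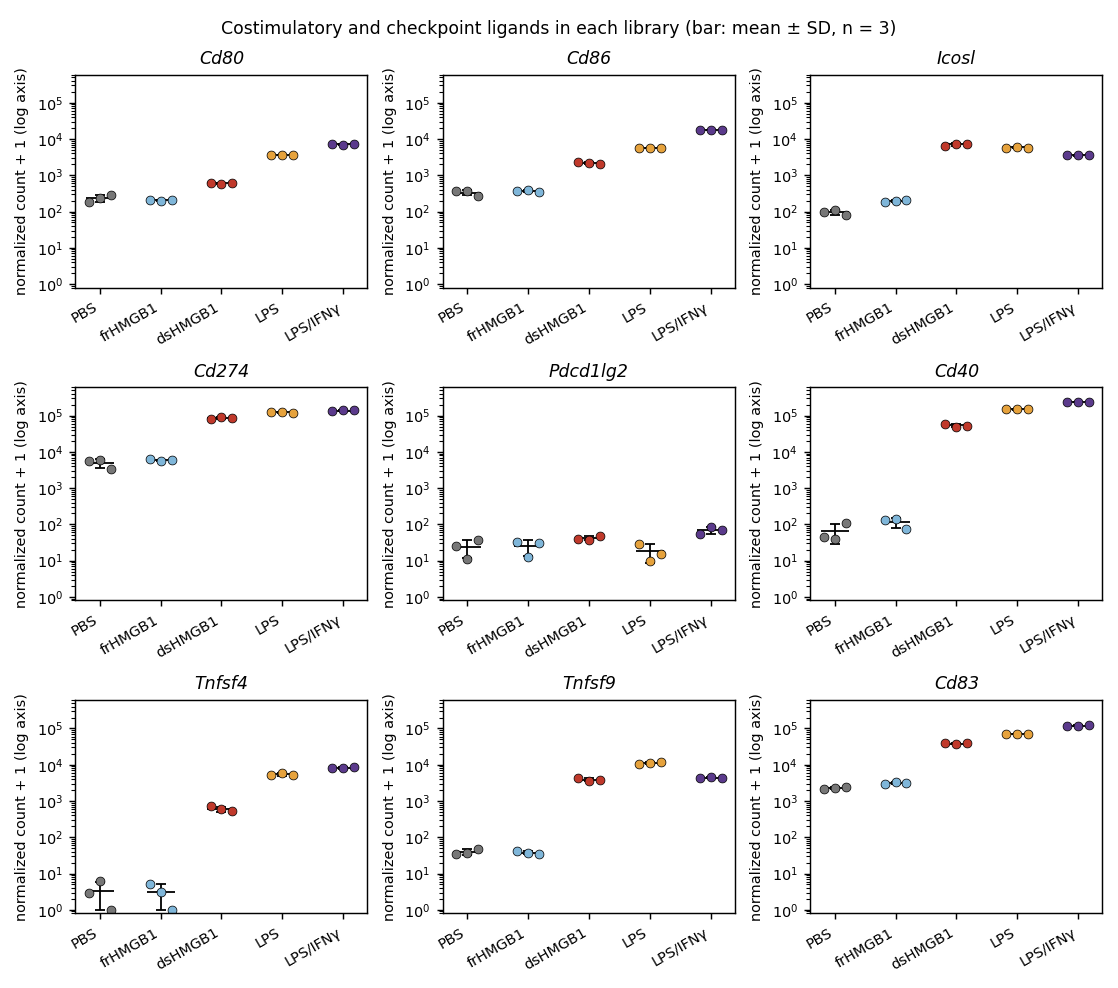
Normalized count + 1 on a log axis for each of the 9 ligand genes in the 15 libraries, by condition, with the mean ± SD of 3 libraries as bars. PBS and frHMGB1 lie below dsHMGB1, LPS and LPS/IFNγ in 8 panels. The gap to dsHMGB1 is smallest for *Cd80*, with a mean of 237 in PBS and 596 in dsHMGB1. *Pdcd1lg2* does not exceed 84.2 normalized counts in any library.

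**Figure D2:**
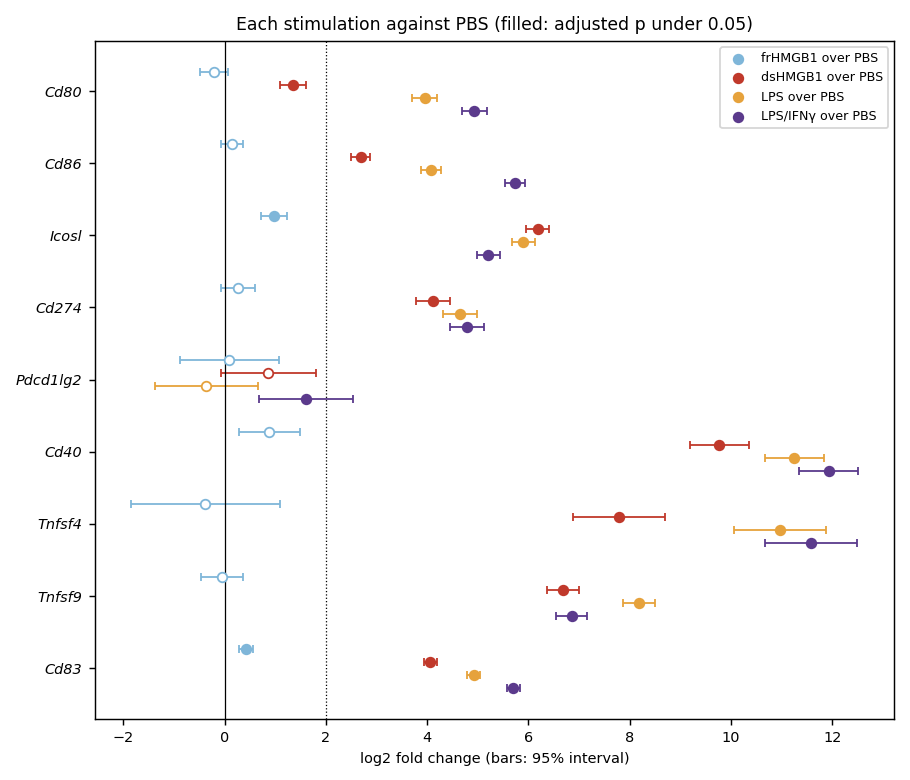
Log2 fold change of each stimulation over PBS with its 95% interval for the 9 ligand genes, filled where edgeR's adjusted p was under 0.05, with a dotted line at 2. The frHMGB1 points lie below 1, and the others reach 11.92 for *Cd40* in LPS/IFNγ.

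*Cd80* (ENSMUSG00000075122, chr16:38455561-38496335, plus strand) rose in steps from dsHMGB1 to LPS to LPS/IFNγ. Its normalized counts were 182, 239 and 289 in the 3 PBS libraries and 203, 200.3 and 204 in frHMGB1. They were 601, 575 and 613 with dsHMGB1, 3629.9, 3662 and 3548 with LPS and 7238, 7021 and 7110.4 with LPS/IFNγ. No library of these 3 stimulations overlapped with PBS or with another of them, while frHMGB1 lay within the PBS range. The means were 237 ± 53.9 (SD, n = 3) in PBS and 202 ± 1.87 in frHMGB1, and the log2 fold change of -0.21 ± 0.14 (SE) was not called (adjusted p = 0.458; 95% interval -0.48 to 0.06). Without PBS replicate 1, it was -0.36 and was called lower (adjusted p = 0.0425). Over PBS the log2 fold change was 1.35 ± 0.13 with dsHMGB1 (adjusted p = 6.44e-07), 3.95 ± 0.13 in LPS and 4.93 ± 0.13 in LPS/IFNγ. Apart from PBS and frHMGB1, neighbours in the order of levels differed beyond the spread between libraries. In bulk RNA, fewer expressing cells and less RNA per cell cannot be told apart, here and for every gene below.

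*Cd86* (ENSMUSG00000022901, chr16:36603869-36666081, minus strand), whose protein binds the same receptors, lies 1789479 bp from *Cd80* on chromosome 16. It showed the same order of conditions with a larger response to dsHMGB1. PBS libraries had 358, 367 and 271 normalized counts and frHMGB1 libraries 373, 391 and 353, so the groups overlapped. Stimulated libraries had 2286, 2119 and 2067 with dsHMGB1, 5768, 5616 and 5505 with LPS and 17788, 17791 and 18196 with LPS/IFNγ, with no overlap between conditions. The log2 fold change over PBS was 2.68 ± 0.10 (SE) with dsHMGB1, 4.07 ± 0.10 with LPS and 5.74 ± 0.10 with LPS/IFNγ, with adjusted p from 1.17e-09 to 1.78e-12. In frHMGB1 it was 0.15 ± 0.11 (adjusted p = 0.537).

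The balance of the B7 pair was not the same in the 3 stimulations. The ratio of *Cd80* to *Cd86* normalized counts was 0.277 ± 0.0175 (SD, n = 3) with dsHMGB1, 0.642 ± 0.0115 with LPS and 0.397 ± 0.00843 with LPS/IFNγ. These 3 groups did not overlap. In frHMGB1 the ratio was 0.545 ± 0.0331, and in PBS it ranged from 0.507 to 1.07, the highest value being that of PBS replicate 3. The ratio was thus lowest in dsHMGB1 in all 3 libraries, from 0.263 to 0.296. With 3 libraries against 3, an exact two-sided permutation test cannot go below p = 0.1, so the ratios were not tested.

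**Figure D3:**
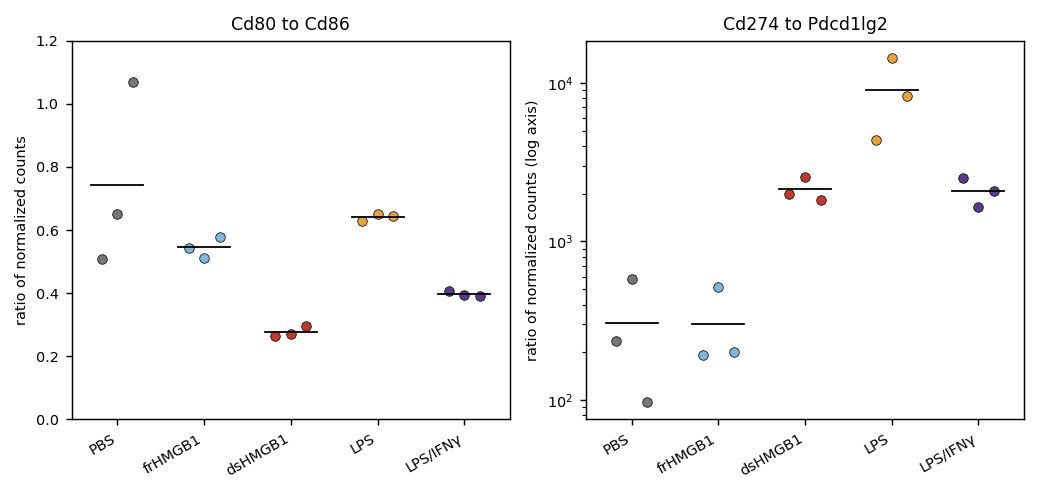
Ratio of *Cd80* to *Cd86* (left) and of *Cd274* to *Pdcd1lg2* (right, log axis) in normalized counts for each library, by condition, with the mean as a line. The *Cd80* to *Cd86* ratio is lowest in dsHMGB1, and the *Cd274* to *Pdcd1lg2* ratio is highest in LPS, where the libraries spread from 4370 to 14341.

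*Icosl* (ENSMUSG00000000732, chr10:78069302-78083913, plus strand) encodes the ligand of ICOS, and it was the ligand gene with its highest mean in dsHMGB1. Its normalized counts were 98.9, 110.4 and 78.5 in PBS and 179.6, 193 and 204 in frHMGB1. This was the larger of the 2 rises with frHMGB1, and the groups did not overlap. The mean went from 95.9 ± 16.1 to 192 ± 12.2 (SD, n = 3), a log2 fold change of 0.97 ± 0.13 (SE; adjusted p = 0.000311). When PBS and frHMGB1 were fitted without the other conditions the value was again 0.97, with an adjusted p of 0.0969. The libraries had 6551, 7464 and 7271 with dsHMGB1, 5618, 6179.8 and 5762 with LPS and 3558, 3528 and 3733 with LPS/IFNγ. Every dsHMGB1 library thus lay above every LPS library, and every LPS library above every LPS/IFNγ library. Over PBS the log2 fold change was 6.18 ± 0.12 with dsHMGB1 (adjusted p = 2.63e-12), 5.90 ± 0.12 in LPS and 5.20 ± 0.12 in LPS/IFNγ. The step from LPS to dsHMGB1 was 0.28 ± 0.09 (95% interval 0.10 to 0.45) and was not called (adjusted p = 0.0617). It was called by DESeq2 (adjusted p = 0.00804), and by edgeR with only these conditions fitted (0.00593), with protein-coding genes only (0.0267) and with the filter of 1 CPM in 3 libraries (0.0385). The fall from LPS to LPS/IFNγ was called, with a log2 fold change of -0.70 ± 0.09 (adjusted p = 0.00123).

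Of the PD-1 ligands, *Cd274* rose with dsHMGB1, LPS and LPS/IFNγ, and *Pdcd1lg2* stayed low in every condition. *Cd274* (ENSMUSG00000016496, chr19:29367455-29388095, plus strand), the gene of PD-L1, was already abundant in PBS, at 5640.2, 5877 and 3413 normalized counts, the lowest value being that of PBS replicate 3. With frHMGB1 the counts were 6192, 5782 and 5869, and overlapped with PBS (log2 fold change 0.26 ± 0.17, adjusted p = 0.5). They reached 78373, 93724 and 86014 with dsHMGB1, 124272, 128597 and 121807 with LPS and 135393, 138830.0 and 140186 with LPS/IFNγ. All 9 of these libraries lay far above PBS, and the 3 groups did not overlap. The log2 fold change over PBS was 4.11 ± 0.17 with dsHMGB1, 4.65 ± 0.17 with LPS and 4.79 ± 0.17 with LPS/IFNγ, with adjusted p from 1.85e-10 to 1.15e-09. LPS/IFNγ differed from LPS by 0.15 ± 0.17 (95% interval -0.19 to 0.48; adjusted p = 0.502) although the libraries did not overlap, and without the other conditions in the fit this step was called (adjusted p = 0.000473). dsHMGB1 lay below LPS by -0.54 ± 0.17 on the log2 scale (adjusted p = 0.0548), which was not called. DESeq2 called it (adjusted p = 0.00706). So did edgeR with RLE factors (adjusted p = 0.0211), with the filter of 1 CPM in 3 libraries (0.0421) and with only these conditions fitted (0.000394). An antisense gene, AC119228.1, shares 511 bp of exon with *Cd274*. Its mean was 101 ± 75.8 normalized counts in PBS, 1476 ± 755 with dsHMGB1, 1735 ± 411 with LPS and 1102 ± 178 with LPS/IFNγ. The kit marks strand, but how the counting treated strand is not given in the sources, so reads of the shared stretch may not be told apart.

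*Pdcd1lg2* (ENSMUSG00000016498, chr19:29410919-29471161, plus strand), the gene of PD-L2, was close to the lower end of detection. Its normalized counts were 23.9, 10.1 and 35.1 in PBS, 32.1, 11.2 and 29.1 in frHMGB1 and 39.1, 36.7 and 47.1 in dsHMGB1. LPS gave 28.4, 8.97 and 14.7 and LPS/IFNγ 54.1, 84.2 and 67.6. LPS/IFNγ alone lay above all PBS libraries with a call, at a log2 fold change of 1.61 ± 0.48 (adjusted p = 0.00963). In raw reads the 3 libraries together held 83 counts in PBS, 68 in frHMGB1, 150 with dsHMGB1, 38 with LPS and 205 with LPS/IFNγ. The log2 fold change over PBS was 0.86 ± 0.48 with dsHMGB1 (95% interval -0.08 to 1.80; adjusted p = 0.145), and without PBS replicate 3 it was 1.27 and was called (adjusted p = 0.0278). In LPS it was -0.36 ± 0.52 (95% interval -1.38 to 0.66; adjusted p = 0.511). No neighbours in the order of its 5 condition means were called different, but LPS/IFNγ lay 1.97 ± 0.51 above LPS (adjusted p = 0.00901). The ratio of *Cd274* to *Pdcd1lg2* ranged from 97.1 to 582 in PBS and was 2128 ± 380 (SD, n = 3) with dsHMGB1, 8998 ± 5024 with LPS and 2075 ± 427 with LPS/IFNγ.

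*Cd40* (ENSMUSG00000017652, chr2:165055627-165072948, plus strand) had the largest log2 fold changes of the 9 genes in dsHMGB1, LPS and LPS/IFNγ. Without PBS replicate 2, *Tnfsf4* came before it in LPS (12.10 against 11.00) and in LPS/IFNγ (12.72 against 11.68). *Cd40* encodes the receptor through which helper T cells activate antigen-presenting cells. In PBS its normalized counts were 45.3, 39.7 and 105, the highest being that of PBS replicate 3, and in frHMGB1 they were 128, 140.0 and 74.4. The libraries had 60386, 49378 and 52115 with dsHMGB1, 148110.0, 148528 and 153376 with LPS and 242522, 235078 and 242769 with LPS/IFNγ. In LPS and LPS/IFNγ these were the highest values of any ligand gene, and no pair of the 3 groups overlapped. Over PBS the log2 fold change was 9.77 ± 0.30 with dsHMGB1 (adjusted p = 1.36e-10), 11.24 ± 0.30 in LPS and 11.92 ± 0.30 in LPS/IFNγ. In frHMGB1 it was 0.89 ± 0.31 (95% interval 0.28 to 1.49) and was not called (adjusted p = 0.0803). Without PBS replicate 3 it was 1.43 and was called (adjusted p = 6.77e-05), as it was without frHMGB1 replicate 3, at 1.13 (adjusted p = 0.0297), and by DESeq2 (adjusted p = 0.0403). The step from LPS to LPS/IFNγ was 0.68 ± 0.28 (adjusted p = 0.0546), and it was called when these conditions were fitted alone (adjusted p = 7.71e-14).

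*Tnfsf4* (ENSMUSG00000026700, chr1:161395409-161418410, plus strand), the gene of OX40 ligand, was almost without reads in PBS and frHMGB1. Its normalized counts were 1.94, 5.05 and 0 in PBS and 4.28, 2.04 and 0 in frHMGB1, from 11 and 6 raw counts in all. In dsHMGB1 they were 707, 599 and 515. In LPS they were 5238, 5993 and 5159.6, and in LPS/IFNγ 7924, 8244 and 8911. dsHMGB1 lay above PBS and frHMGB1 and below LPS, without overlap with any of them. The log2 fold change over PBS was 7.79 ± 0.46 with dsHMGB1 (adjusted p = 3.81e-09), 10.96 ± 0.46 in LPS and 11.57 ± 0.46 in LPS/IFNγ, each resting on the 11 counts of PBS. Without PBS replicate 2, which had the highest value of the PBS libraries, these were 8.93, 12.10 and 12.72. In frHMGB1 it was -0.38 ± 0.75 (95% interval -1.84 to 1.09; adjusted p = 0.872), and 0.77 without PBS replicate 2, so no difference was detectable at this depth. The step from LPS to LPS/IFNγ was 0.61 ± 0.15 (95% interval 0.33 to 0.90) and was not called by edgeR (adjusted p = 0.0811); DESeq2 called it (adjusted p = 0.000207).

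*Tnfsf9* (ENSMUSG00000035678, chr17:57105325-57107757, plus strand), the gene of 4-1BB ligand, was highest in LPS without IFNγ. PBS libraries had 33.6, 35.9 and 48.0 normalized counts and frHMGB1 libraries 40.6, 35.8 and 33.4, and these groups overlapped (log2 fold change -0.05 ± 0.21, adjusted p = 0.95). The counts were 4361, 3494 and 3872 with dsHMGB1, 10709, 10862 and 11644 with LPS and 4419, 4504 and 4229.7 with LPS/IFNγ. dsHMGB1 and LPS/IFNγ overlapped, and both lay below LPS. The log2 fold change over PBS was 6.68 ± 0.16 with dsHMGB1, 8.19 ± 0.16 with LPS and 6.85 ± 0.16 with LPS/IFNγ, with adjusted p from 1.18e-13 to 7.74e-13. LPS/IFNγ fell below LPS by a log2 fold change of -1.34 ± 0.11 (adjusted p = 2.01e-06), and dsHMGB1 differed from LPS/IFNγ by -0.17 ± 0.11 (95% interval -0.38 to 0.04; adjusted p = 0.341). A non-coding gene on the other strand, Gm11110, shares 192 bp of exon with *Tnfsf9* and had means of 32.0 normalized counts in PBS, 58.5 with dsHMGB1, 54.5 with LPS and 97.0 with LPS/IFNγ.

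*Cd83* (ENSMUSG00000015396, chr13:43784775-43803132, plus strand) had the tightest replicates of the 9 genes in PBS, relative to its level. Its normalized counts were 2168, 2324 and 2460.2 in PBS and 2879, 3266 and 3156 in frHMGB1, without overlap. This was the second gene called in frHMGB1, with a log2 fold change of 0.42 ± 0.07 (SE; adjusted p = 0.00237). Fitted over protein-coding genes only, it was 0.34 and was not called (adjusted p = 0.0673). With only PBS and frHMGB1 fitted it was 0.39 and was not called either (adjusted p = 0.337). The libraries had 39517, 37319.8 and 38779 with dsHMGB1, 68451, 70703 and 70306 with LPS and 118725, 118732 and 122896 with LPS/IFNγ. The 5 conditions did not overlap, and all neighbours in the order PBS, frHMGB1, dsHMGB1, LPS, LPS/IFNγ were called different. Over PBS the log2 fold change was 4.06 ± 0.07 with dsHMGB1, 4.91 ± 0.07 with LPS and 5.70 ± 0.07 with LPS/IFNγ, with adjusted p from 5.05e-14 to 5.83e-13.

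The HMGB1 forms were compared at the same dose, where redox form and source cannot be told apart. dsHMGB1 was higher than frHMGB1 for 8 of 9 genes, against 27.7% of all tested genes higher and 23.1% lower. The log2 differences ran from 1.56 ± 0.13 (SE) for *Cd80* (adjusted p = 1.83e-07) to 8.88 ± 0.29 for *Cd40* (adjusted p = 2.7e-10). *Pdcd1lg2* was the exception, at 0.77 ± 0.49 (adjusted p = 0.212).

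Against LPS, which also acts through Toll-like receptor 4, dsHMGB1 gave lower levels of 6 of the 9 genes, where 10.6% of all tested genes were lower. *Tnfsf4* was lower by a log2 difference of -3.17 ± 0.15 (SE; adjusted p = 3.6e-06), *Cd80* by -2.60 ± 0.12 (adjusted p = 2.52e-08), *Tnfsf9* by -1.50 ± 0.11, *Cd40* by -1.48 ± 0.28, *Cd86* by -1.38 ± 0.09 and *Cd83* by -0.86 ± 0.06. The adjusted p of the last 4 ran from 9.83e-07 to 0.00113. No ligand gene was called higher in dsHMGB1 by edgeR, where 15.8% of all tested genes were. At an unadjusted p under 0.05, edgeR gave 2 such genes, and DESeq2 called 1. With only these conditions fitted, edgeR called all 9 genes, of which *Icosl* and *Pdcd1lg2* (1.25, adjusted p = 0.0237) were higher in dsHMGB1, where 25.3% of all tested genes were. In the fit of all conditions *Pdcd1lg2* lay 1.22 ± 0.51 above LPS (adjusted p = 0.0804). The doses of dsHMGB1 and LPS differ in kind and amount, so the sizes apply to these doses.

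Against LPS/IFNγ, dsHMGB1 was lower for 6 genes and higher for 1, where 16.7% and 16.5% of all tested genes were. The gene that was higher was *Icosl*, by a log2 difference of 0.98 ± 0.09 (SE; adjusted p = 3.05e-05). The lower genes ran from *Cd274*, at -0.68 ± 0.17 (adjusted p = 0.00891), over *Cd83* (-1.64), *Cd40* (-2.15), *Cd86* (-3.05) and *Cd80* (-3.58) to *Tnfsf4*, at -3.78 ± 0.15 (adjusted p = 3.15e-07). *Pdcd1lg2* (-0.75 ± 0.46, adjusted p = 0.252) and *Tnfsf9* were not called, but with only these conditions fitted *Pdcd1lg2* was called lower (-0.73, adjusted p = 0.0258).

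The comparison of LPS/IFNγ with LPS, which by the study's methods also differ in LPS dose, divided the 9 genes. *Cd86* (1.67 ± 0.09, adjusted p = 4.24e-07), *Cd80* (0.98 ± 0.12, adjusted p = 2.35e-05), *Cd83* (0.78 ± 0.06, adjusted p = 3.89e-06) and *Pdcd1lg2* were higher in LPS/IFNγ. These were 4 of 9 genes, against 16.3% of all tested genes. *Icosl* and *Tnfsf9* were lower, 2 of 9 against 9.36% of all tested genes. The other three, *Cd274*, *Cd40* and *Tnfsf4*, had positive log2 fold changes that were not called, and that were called with only these conditions fitted. Of the 6 dendritic cell markers, 2 were called higher in the same contrast. *Zbtb46* had 195 ± 17.8 normalized counts (SD, n = 3) in LPS and 515 ± 48.3 in LPS/IFNγ, and *Clec9a* had 12.0 ± 5.31 and 67.1 ± 16.3. *Xcr1* was not called (0.24, adjusted p = 0.588), and *Flt3* had 6 counts in all libraries together. Their part in the higher *Cd80*, *Cd86* and *Cd83* was not tested.

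**Figure D4:**
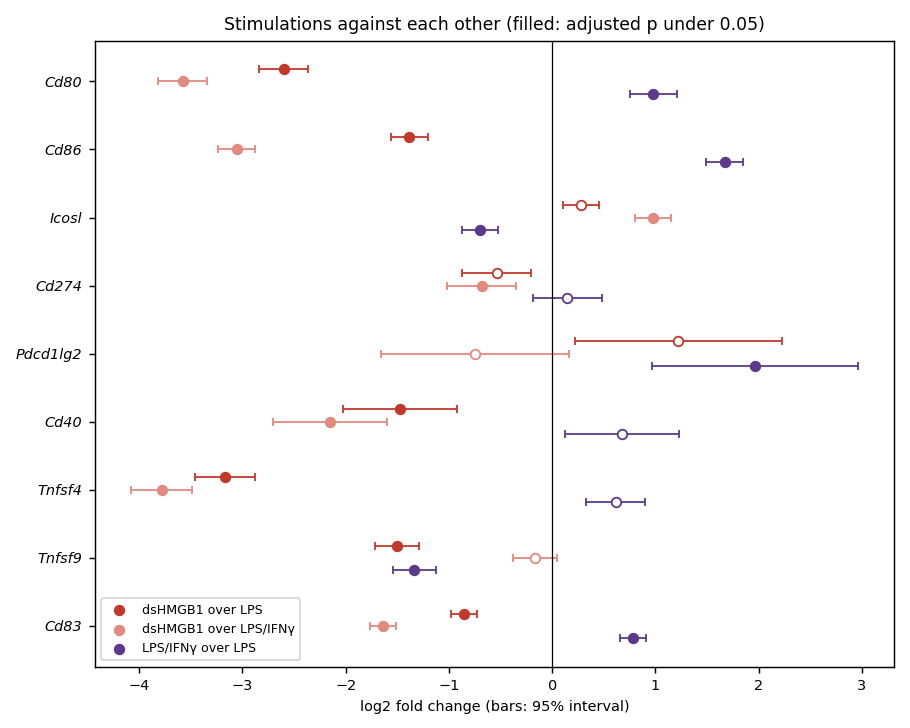
Log2 fold change with its 95% interval of dsHMGB1 over LPS, dsHMGB1 over LPS/IFNγ and LPS/IFNγ over LPS for the 9 ligand genes, filled where edgeR's adjusted p was under 0.05. *Icosl* is the gene with a filled point right of 0 for dsHMGB1, and *Icosl* and *Tnfsf9* are those with filled points left of 0 for LPS/IFNγ over LPS.

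Levels of different genes were compared per kilobase of exon. In PBS, *Cd274* (1374 normalized counts per kb) and *Cd83* (901) led, followed by *Cd86* (90.7) and *Cd80* (63.9). *Tnfsf4* came last at 1.26. In LPS/IFNγ, *Cd40* led with 70499.9, before *Cd83* (46702) and *Cd274* (38138), and *Pdcd1lg2* came last at 35.0. The make-up of the summed level therefore changed. *Cd40* took 0.789% of it in PBS, 1.07% in frHMGB1, 26.3% with dsHMGB1, 36.4% with LPS and 41.2% with LPS/IFNγ. *Cd274* took 54.0%, 52.6%, 39.4%, 28.5% and 22.3% in the same order. The B7 ligands *Cd80* and *Cd86* held 2.61% and 3.60% in PBS and 0.267% and 0.978% in dsHMGB1. As a share of all counts of a library, the 9 genes rose from 0.0126% to 0.0213% in PBS and 0.0224% to 0.0229% in frHMGB1 to 0.328% to 0.332% with dsHMGB1, 0.506% to 0.512% with LPS and 0.732% to 0.741% with LPS/IFNγ. The 3 stimulations did not overlap in this share.

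**Figure D5:**
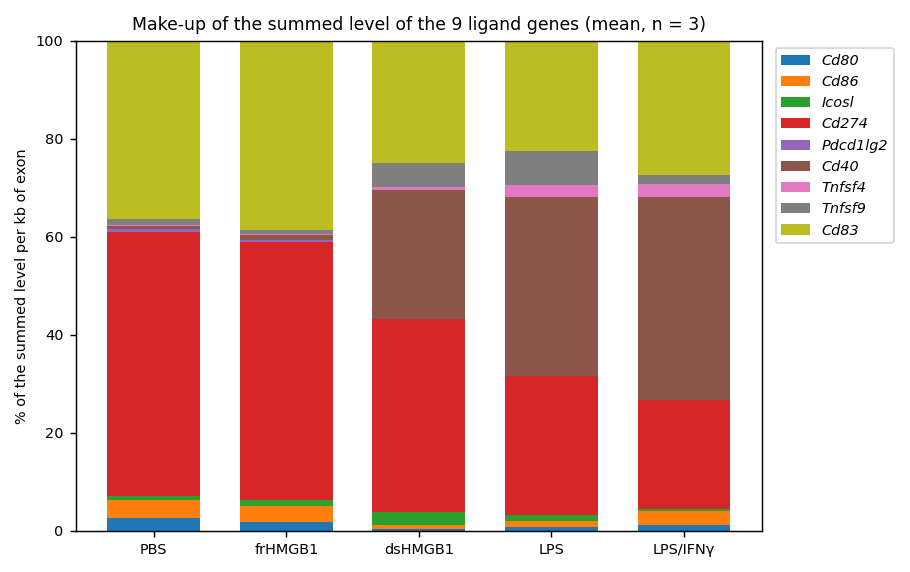
Share of each ligand gene in the summed normalized count per kilobase of exon of the 9 genes, as stacked percentages, mean of 3 libraries per condition. *Cd274* and *Cd83* fill most of the PBS and frHMGB1 bars, and *Cd40* takes 41.2% of the LPS/IFNγ bar.

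Patterns over the 5 condition means were compared by the root mean square difference of centred log2(mean normalized count + 1), among protein-coding genes that averaged 100 normalized counts or more. This measure describes likeness over 5 points only. Within the ligand genes, *Cd274* and *Cd83* were the most alike (0.34), then *Cd80* and *Cd86* (0.50). Outside them, the nearest gene was *Malt1*, a paracaspase of NF-κB signalling, for *Cd274* (0.09), *Ifi205* for *Cd40* (0.14), *Mndal* for *Cd83* (0.14) and *Usp18*, an interferon-induced protease, for *Tnfsf9* (0.17). *Zfp558* was nearest to *Cd80* (0.17), *Gpr132* to *Cd86* (0.20), *H2-M2*, a non-classical MHC class I gene, to *Icosl* (0.33), *Tlr9* to *Pdcd1lg2* (0.24) and *Ccl22*, a chemokine gene, to *Tnfsf4* (0.42). *Ccl22* was the least close of the 9, with means of 21849 normalized counts in LPS and 14719.8 in LPS/IFNγ, opposite in order to *Tnfsf4*. *Tlr9* ranged from 65.6 to 1813 normalized counts in PBS and was called in no comparison.

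Of 24 other costimulatory and inhibitory ligand genes, 22 passed the filter. Called higher and lower than PBS were 2 and 0 of them in frHMGB1, 16 and 1 in dsHMGB1, 17 and 2 in LPS, and 16 and 3 in LPS/IFNγ. The shares of all tested genes were 1.31% and 5.69%, 23.3% and 24.2%, 26.7% and 36.2%, and 29.0% and 31.2%. Their median log2 fold change was 0.18, 2.19, 3.11 and 2.82, beside the medians of all tested genes given above. *Slamf1*, a self-binding receptor of lymphocytes and myeloid cells, had 0 counts in PBS, so the folds over PBS are lower limits against 3 counts over the group. It was at least 98.1-fold higher in dsHMGB1 (adjusted p = 2.34e-06), at least 685-fold in LPS and at least 337-fold in LPS/IFNγ. In frHMGB1 it had 10 counts, from 0 to 8.55 normalized counts per library, and was called higher (adjusted p = 0.0485). There the mean was 4.69-fold the limit for PBS, which leaves out the error of these 10 counts. *Tnfsf15*, the gene of the death receptor 3 ligand TL1A, rose from 51.1 ± 38.2 in PBS (normalized counts, SD, n = 3) to 7948 ± 1175 with dsHMGB1, 51800.1 ± 1075 with LPS and 26194 ± 274 with LPS/IFNγ (log2 fold changes 7.25, 9.96 and 8.98). *Lgals9*, the gene of galectin-9, was the other gene higher in frHMGB1, at 0.43 ± 0.09 (adjusted p = 0.00842). *Vsir*, which encodes the inhibitory ligand VISTA, fell in all 3 other stimulations. Its mean was 39324 ± 3467 in PBS, 15079 ± 327 with dsHMGB1, 10631 ± 359.7 with LPS and 14577 ± 367 with LPS/IFNγ, and the log2 fold changes were -1.38 ± 0.07 (adjusted p = 3.71e-08), -1.89 ± 0.07 and -1.43 ± 0.07. *Cd276* (B7-H3) fell by a smaller amount in LPS (-0.51 ± 0.15, adjusted p = 0.0061) and LPS/IFNγ (-0.84 ± 0.15, adjusted p = 0.000289).

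Of the 8 genes of receptors that bind these ligands, 5 passed the filter. Each of dsHMGB1, LPS and LPS/IFNγ had 2 called higher and 1 lower than PBS, and frHMGB1 had 0 in either direction by edgeR. Of all tested genes, 23.3% to 29.0% were higher and 24.2% to 36.2% lower in the 3 stimulations. *Ctla4* and *Cd40lg* had 0 counts in all 15 libraries, which allows a level of up to 0.00335 CPM over all of them, and *Pdcd1* had 9 counts in all. *Cd28* was counted nonetheless, at 6584 ± 4024 normalized counts (SD, n = 3) in PBS and 6839 ± 285 in frHMGB1. It fell to 1136 ± 154 in dsHMGB1 (log2 fold change -2.53 ± 0.39, adjusted p = 0.000196), 571 ± 102 in LPS (-3.53 ± 0.39) and 822 ± 28.7 in LPS/IFNγ (adjusted p = 3.08e-05). The fall of this CD80 and CD86 receptor gene thus stood beside the rise of both ligands, in libraries where the CD3 genes had no count. *Tnfrsf9*, the 4-1BB gene, rose from 6.26 in PBS to 47.4 with dsHMGB1, 103 with LPS and 52.3 with LPS/IFNγ, with adjusted p from 9.37e-06 to 0.000237. *Rgmb*, whose protein binds PD-L2, rose by 0.46 ± 0.08, 0.40 ± 0.09 and 1.09 ± 0.08 in the same conditions.

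All 12 genes on the list of CD40 signalling passed the filter. Over PBS, frHMGB1 raised 3 and lowered 0, dsHMGB1 raised 10 and lowered 1, and LPS and LPS/IFNγ each raised 9 and lowered 1. Of all tested genes, 1.31%, 23.3%, 26.7% and 29.0% were higher in these 4 conditions, and 5.69%, 24.2%, 36.2% and 31.2% were lower. *Traf1*, an adaptor bound to CD40 and other TNF receptors, rose from 189 ± 15.6 in PBS (normalized counts, SD, n = 3) to 333 ± 30.2 in frHMGB1 (log2 fold change 0.83 ± 0.11, adjusted p = 7.47e-05). It reached 11244 ± 892 with dsHMGB1, 26211 ± 636 with LPS and 20331 ± 182 with LPS/IFNγ, at 5.91, 7.13 and 6.76. *Nfkb2*, the p100 precursor of the alternative NF-κB pathway, also rose in frHMGB1, at 0.55 ± 0.07 (adjusted p = 0.000481). *Tnfaip3*, the gene of the inhibitor A20, rose by 4.47 ± 0.23 with dsHMGB1, 5.99 ± 0.23 with LPS and 5.46 ± 0.23 with LPS/IFNγ. *Map3k14*, the kinase NIK of the alternative pathway, fell in dsHMGB1 (-0.41 ± 0.16, adjusted p = 0.0465) and LPS (-1.09 ± 0.17) and rose in LPS/IFNγ (0.84 ± 0.16, adjusted p = 0.00086). *Traf5* fell in LPS/IFNγ, by -1.49 ± 0.23 (adjusted p = 2.07e-05).

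The last list holds 5 genes that bear on how long the proteins stay at the surface, and all 5 passed the filter. *Cmtm6* and *Cmtm4* protect PD-L1 from degradation, *March1* and *March8* are ubiquitin ligases of CD86 and MHC class II, and *Il10* encodes a cytokine that lowers CD86. Called higher and lower were 0 and 0 in frHMGB1, where 1.31% and 5.69% of all tested genes were. The counts were 3 and 1 with dsHMGB1, against 23.3% and 24.2%, and 2 and 2 in both LPS and LPS/IFNγ. In these last 2 conditions 26.7% and 29.0% of all tested genes were higher and 36.2% and 31.2% lower, not far from 2 of 5. *Cmtm6* rose by 1.86 ± 0.10 on the log2 scale in dsHMGB1, 2.62 ± 0.10 with LPS and 2.43 ± 0.10 with LPS/IFNγ, while *Cmtm4* fell, at -0.85 ± 0.11, -1.51 ± 0.11 and -1.46 ± 0.11. *Il10* rose from 27.5 ± 13.6 in PBS (normalized counts, SD, n = 3) to 175 ± 39.9 with dsHMGB1, 2199 ± 299.7 with LPS and 361 ± 81.5 with LPS/IFNγ, so it was highest in LPS. *March1* was higher in dsHMGB1 (0.98 ± 0.23, adjusted p = 0.00384) and lower in LPS/IFNγ (-1.34 ± 0.23, adjusted p = 0.000185), and *March8* was lower in LPS (-0.94 ± 0.23, adjusted p = 0.00174).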

How the data were processed

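RNA was sequenced from 15 samples of BMDMs, 3 per condition, grouped by the treatments in the sample labels. Per the methods of the study and the labels, the authors prepared stranded mRNA libraries, ran CASAVA for base-calling and demultiplexing, mapped paired-end reads to GRCm38 with STAR and used DESeq2; which program counted the reads, and on which annotation, is not given in the sources used here. The deposited values are whole-number read counts per gene, not normalized. The table has 0 columns without a sample. Gene positions and types are those of GENCODE M21, which held 51661 of 51763 identifiers.

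Genes were filtered with filterByExpr (a minimum count of 10 and a minimum total of 15) and tested by quasi-likelihood in edgeR 4.0.16, where a single fit with TMM factors and no covariates held the 15 libraries, with Benjamini-Hochberg adjustment over 16919 genes. The normalized counts and the log2 fold changes (without shrinkage, with SE) come from DESeq2 1.42.0 in R 4.3.3, and 95% intervals are normal intervals of these. TMM in place of these size factors moves a log2 fold change by at most 0.08. Both assume that most genes do not change, and scaling by total counts was not tested. It would give smaller rises over PBS in dsHMGB1, LPS and LPS/IFNγ. PBS replicate 1 had 65797491 counts and a size factor of 1.55, and LPS/IFNγ replicate 2 had 69321128 and 0.95. In CPM, *Tnfsf9* was 59.6 to 74.4 with dsHMGB1 and 57.2 to 61.7 with LPS/IFNγ. Levels per kilobase were divided by the exon length of the gene. The chi-square per degree of freedom between replicates lay between 4.34 and 814, so no library was a copy of another. The pipeline was also run on simulated counts with known changes in a small set of genes of a single condition. That setting does not cover changes in as many genes as were called here. Floors of 3 counts cover counting error only, as reads copied by PCR are not independent molecules.

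The 9 genes and the 4 gene lists were chosen with earlier results of these data known. Named genes were all 9 ligand genes, the nearest gene of each by pattern, and, from each list, per stimulation, the 2 called genes that rose most and the 2 that fell most. Alternatives were the Wald test of DESeq2, RLE factors, leaving low counts unfiltered, requiring 1 CPM in 3 libraries, protein-coding genes only, only the 2 conditions compared, a replicate block, a log2 fold change of 1, and each library left out in turn. Their effect is given at the end.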

Additional observations from a re-analysis of the deposited data

How the results depend on the processing

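Of 1159 values of the log2 fold changes of the 9 ligand genes under alternatives, 1126 kept their direction and their side of the threshold, 5 lost the call, 20 gained one, 8 changed sign without a call under either setting, and 0 reversed a call; the cause of these changes was not tested. In frHMGB1 against PBS, the ligand genes called (2 as reported) were 1 with protein-coding genes only and 0 with only the 2 conditions fitted. *Tnfsf4* was filtered out there in 1 alternative, and *Pdcd1lg2* was filtered out of every comparison by the filter of 1 CPM in 3 libraries, which left 8 ligand genes called in LPS/IFNγ against PBS (9 as reported). In frHMGB1 against PBS, 1185 genes of all tested were called as reported, 716 with that filter and 70 with protein-coding genes only. There were 189 with only the 2 conditions fitted. Leaving out 1 library gave 839 to 3035, the latter without PBS replicate 3. With only the 2 conditions fitted, all genes called were 4747 in dsHMGB1 against PBS (8028 as reported), 6985 in dsHMGB1 against LPS (4461), 8580 in dsHMGB1 against LPS/IFNγ (5621) and 8999 in LPS/IFNγ against LPS (4348). *Pdcd1lg2* was called higher in LPS/IFNγ than in frHMGB1 (log2 fold change 1.51, adjusted p = 0.0148) and lost the call without frHMGB1 replicate 2 (1.16, adjusted p = 0.0624) or LPS/IFNγ replicate 2 (1.34, adjusted p = 0.0569). In dsHMGB1 against LPS it gained one without LPS replicate 1 (1.78, adjusted p = 0.0405). No pairing of samples by their number was detected. Over 30 pairs of libraries with the same number, the correlation of deviations ran from -0.38 to 0.37 with a median of 0.00, and 1 was over 0.1. Over 60 pairs with different numbers it ran from -0.44 to 0.46, and 4 were over 0.1. With the replicate block, 1015 genes and 2 ligand genes were called in frHMGB1 against PBS, and no count of ligand genes changed in any comparison. Depth limits *Pdcd1lg2* and, in PBS and frHMGB1, *Tnfsf4*.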

Other observations

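Further genes of the list of other ligands, chosen here after their values were seen, had the following values. *Raet1e*, a gene of the RAE-1 family whose products bind the activating receptor NKG2D, had 28.7 ± 4.68 normalized counts (SD, n = 3) in PBS, 273 ± 29.5 with dsHMGB1, 751 ± 42.1 with LPS and 485 ± 82.1 with LPS/IFNγ, with log2 fold changes over PBS of 3.24 ± 0.27 (SE), 4.70 ± 0.27 and 4.07 ± 0.27. *Raet1d*, of the same family, rose by 3.75, 4.59 and 4.22. *Ulbp1*, another NKG2D ligand gene, was called higher in dsHMGB1 (1.41 ± 0.40, adjusted p = 0.0135) but not in LPS (0.80 ± 0.40, adjusted p = 0.139) or LPS/IFNγ (0.14 ± 0.40, adjusted p = 0.87). Between stimulations, dsHMGB1 was not called against LPS (0.61, adjusted p = 0.269) and was called higher than LPS/IFNγ (1.27, adjusted p = 0.0256). The PBS libraries ranged from 296 to 1425 normalized counts of *Ulbp1*. *Pvr* and *Nectin2*, genes of the ligands of DNAM-1 and TIGIT, rose by 3.82 ± 0.10 (adjusted p = 2.16e-11) and 3.90 ± 0.20 (adjusted p = 8.56e-10) in LPS and by 2.84 ± 0.10 and 2.30 ± 0.20 in dsHMGB1. *Cd200*, whose product restrains myeloid cells, rose from 2373 ± 695 normalized counts in PBS to 54568 ± 777 in LPS/IFNγ, at 4.52 ± 0.17 on the log2 scale (adjusted p = 3.96e-10). *Tnfsf8*, the CD30 ligand gene, was higher in LPS/IFNγ than in LPS by 1.89 ± 0.26 (adjusted p = 0.00167). Of the 22 tested genes of this list, 2 were called higher in that contrast, 1 was called lower and 19 were not called. Of all tested genes, 16.3% were higher and 9.36% lower.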
